A study of Rattus norvegicus with 11 samples.

Results

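The genes described here encode the enzymes that add methyl groups to histone lysines or remove them, together with the related PRDM and SETD families. They were chosen by symbol alone, as every entry whose name begins with Kdm or Prdm and a digit, Kmt and a digit, Setd or Suv39h, or is Ehmt1, Ehmt2, Ezh1, Ezh2, Nsd1 to Nsd3, Ash1l, Dot1l or Setmar, with 1 entry left out by that rule. This gave 63 genes of 42172 in the files. Their polyadenylated RNA was sequenced in 11 libraries of primary hippocampal neurons of Sprague Dawley (CD IGS) rats, lysed after 7 days in vitro. In 4 libraries the neurons expressed the linker histone H1.4 in its wild-type form from an added construct (called WT H1.4), in 4 the same protein with a frameshifted C-terminal tail (called H1.4 CFT), and in 3 GFP as the control. WT H1.4 and H1.4 CFT were thus both added to cells that keep their own linker histones. The labels give neither the promoter or vector that drove expression nor the age or sex of the animals. Libraries are called by group and replicate number, 1 to 4 for WT and CFT and 2 to 4 for GFP.

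Methyl groups on histone lysines are written by SET-domain enzymes (and by Dot1l, which has another fold) and erased by the flavin-dependent Kdm1 enzymes or by JmjC-domain dioxygenases. Methylation of lysine 4 of histone H3 (H3K4) marks promoters and enhancers in use, H3K36 and H3K79 methylation lie along transcribed genes, and H3K9 and H3K27 methylation mark silenced chromatin. Linker histones are known to favour the compact, silenced states. In neurons many of these genes are known from disorders of brain development, among them Ehmt1, Kmt2a, Kmt5b, Kdm5c, Nsd1, Setd5 and Ash1l.

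Between 12070941 and 18846492 reads were assigned to genes in a library, which sets the counting error of each value. Members took 0.525% to 0.533% of these reads in the CFT libraries, 0.491% to 0.503% in WT and 0.472% to 0.500% in GFP. Levels are given as CPM, the counts divided by the TMM-scaled library size, which sets libraries to a common level for most genes. Of the 63 members, 56 passed the low-count filter and were tested with edgeR's quasi-likelihood test, fitted over all 17294 genes that passed. A gene rose or fell only where the Benjamini-Hochberg adjusted p over all genes tested was under 0.05. CPM values of different genes are not compared here, since longer transcripts give more reads. In the RefSeq annotation, 29 of the 62 members listed overlap the span of another gene, among them Dot1l, Kdm5a, Ezh2, Kmt2c and Setdb1. Whether the counting used strand is not given, so reads of overlapping genes may be mixed there.

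The culture's own marker genes moved between the groups, in bulk RNA in which fewer cells of a type and less RNA per cell cannot be told apart. The 8 neuronal markers listed for this purpose summed to 3086 to 3663 CPM in CFT, below the 4312 to 4487 CPM of WT and 4411 to 4555 CPM of GFP, and 6 of 8 fell against WT and 7 of 8 against GFP. The 8 astrocyte markers summed to 1770 to 1922 CPM in CFT, 1296 to 1389 in WT and 1703 to 1862 in GFP, with 5 of 8 higher in CFT than in WT and 5 of 8 lower in WT than in GFP. The 3 markers of inhibitory neurons summed to 68.4 to 87.1 CPM in CFT, 57.8 to 62.2 in WT and 74.6 to 92.2 in GFP. All 3 were higher in CFT than in WT and lower in WT than in GFP, and 1 was lower in CFT than in GFP. The 8 oligodendrocyte lineage markers summed to 427 to 491 CPM in CFT, 436 to 518 in WT and 427 to 524 in GFP, with 0 of 8 called between CFT and WT in edgeR. Against GFP, 1 of 8 (Cspg4) was higher in CFT and also in WT. The 6 markers of dividing cells summed to 273 to 347 CPM in CFT, 262 to 284 in WT and 258 to 299 in GFP. The 6 microglia markers summed to 8.06 to 11.97 CPM in CFT, 10.45 to 13.8 in WT and 11.06 to 12.8 in GFP, with Cx3cr1 at 0 in every WT library. Of these, 2 were tested and moved in opposite directions in CFT against both groups. P2ry12, which made up most of the sum, fell, and Csf1r, at a mean of 1.13 CPM in CFT, rose. The 8 endothelial, mural and fibroblast markers summed to 33.9 to 43.0 CPM in WT, 48.8 to 56.2 in CFT and 48.6 to 58.6 in GFP, with Cdh5 at 0 in every WT library. Of the 6 tested, 3 were higher in CFT than in WT, 1 was higher in CFT than in GFP and 2 were lower in WT than in GFP. The part of these shifts in the members' changes was not tested.

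Histone methylation enzyme genes changed in H1.4 CFT neurons by small amounts. Against WT H1.4, 13 of 56 tested members rose and 11 fell, beside 16.7% and 19.2% of all genes tested, or 35.9% in either direction. As a share of the members this was 23.2% and 19.6%, close to the background for falls and above it for rises. No share of the members was tested against the background, and the background genes were not matched to the members in level. Against GFP, 12 rose and 3 fell (21.4% and 5.36% of the members), beside 13.3% and 16.2% of all genes, or 29.5% in either direction. Between WT H1.4 and GFP 0 of 56 passed, beside 0.943% of all genes (0.434% higher and 0.509% lower), with 11 members at an unadjusted p under 0.05, a lowest adjusted p of 0.145 in edgeR and 0 calls in DESeq2. Prdm15 had the largest rise against WT, 1.48-fold, and 0 members reached a called 2-fold change, while 472 genes rose and 212 fell at least 2-fold over all genes tested. The median log2 fold change of the members was 0.03 against WT and 0.09 against GFP, beside 0.02 and 0.01 over all genes. Their median absolute log2 fold change against WT was 0.14, beside 0.19 over all genes. The same CFT libraries enter both comparisons, so the values against WT and GFP are not independent of each other.

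Of the 26 members called in at least 1 comparison, 13 were called against both WT and GFP, each in the same direction. The shared CFT libraries favour equal directions for any gene. The share of all genes called in both is not given here. The 10 that were higher in both were Prdm15, Dot1l, Prdm8, Ehmt1, Ehmt2, Kmt2b, Kmt5b, Setd4, Kdm5a and Kdm5c. The 3 that were lower in both were Kdm2b, Setd1b and Setd7. For 10 members every CFT library lay above all 7 libraries of WT and GFP (10.5% of all genes do so, against 17.9% of the members), and for 5 members every CFT library lay below them (13.4% of all genes, against 8.93%). Against each group alone, every CFT library lay above those of WT for 15 members and below for 12 (26.8% and 21.4%, beside 16.1% and 18.5% of all genes), and above those of GFP for 15 and below for 5 (26.8% and 8.93%, beside 17.0% and 18.5%). In the plot of log2 fold changes by enzyme class the members called in both comparisons stand on the same side of 0 in each panel.

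**Figure D1:**
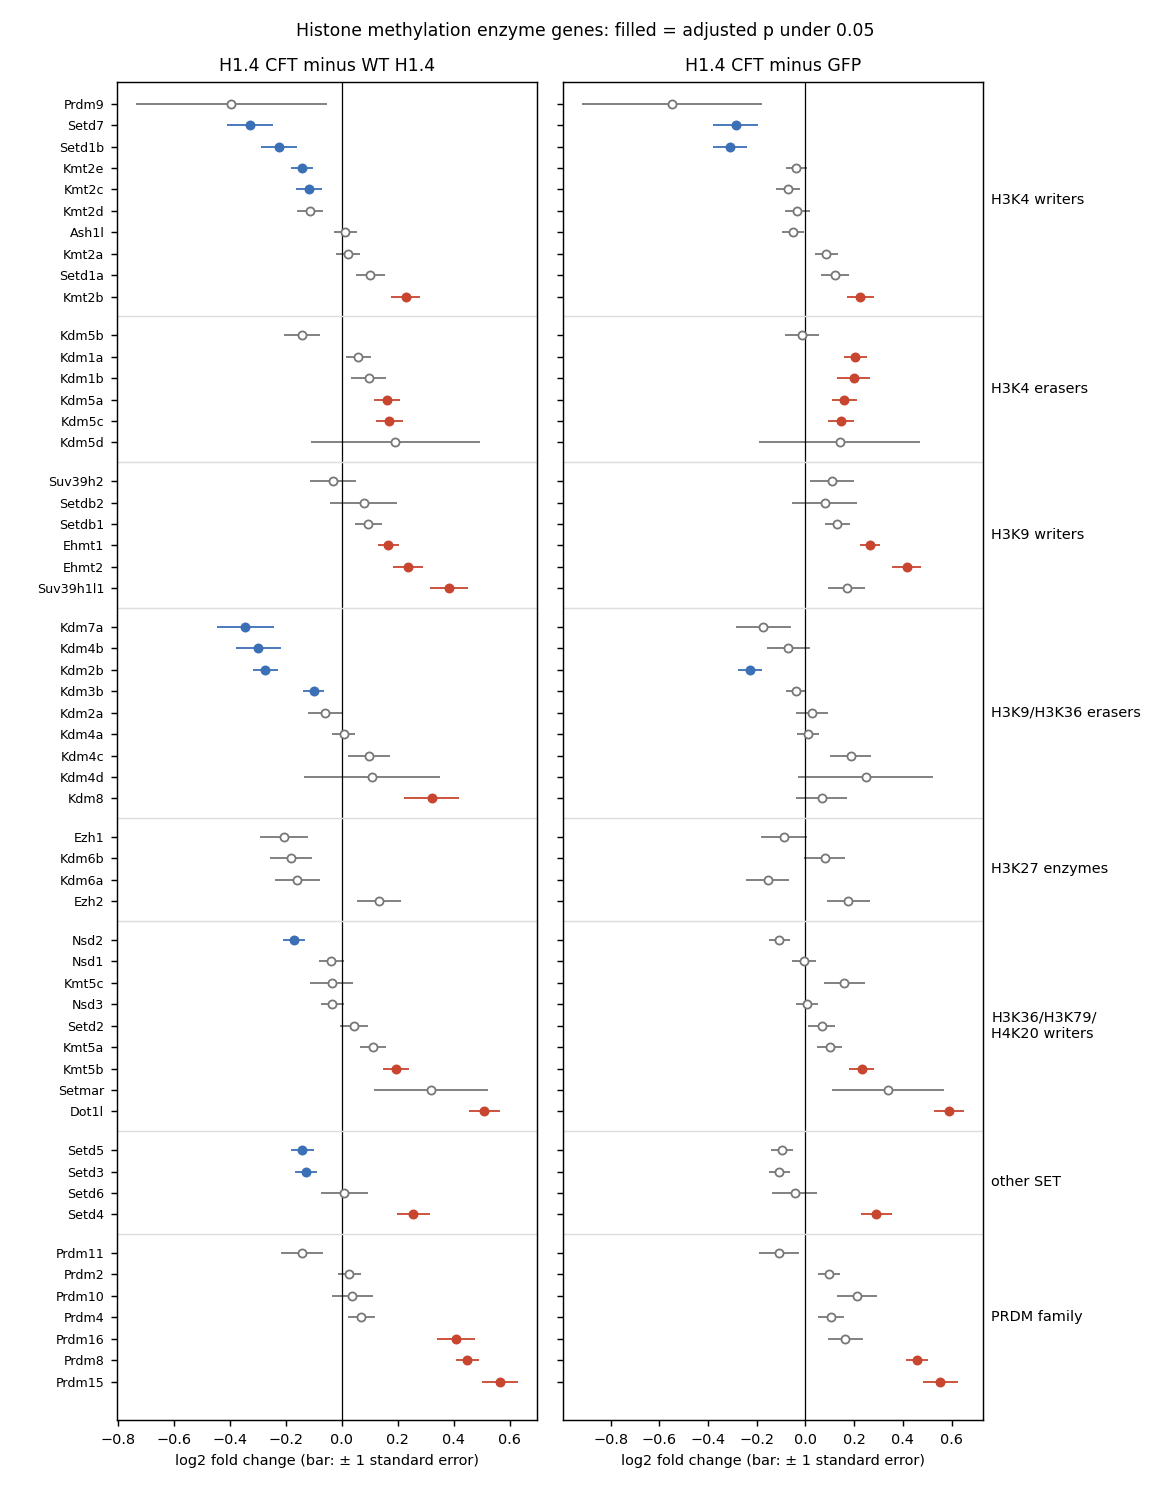
Log2 fold change of tested members (all but 1, which is not reported here) for H1.4 CFT minus WT H1.4 (left) and H1.4 CFT minus GFP (right), grouped by enzyme class, with bars of 1 standard error. Filled points passed an adjusted p of 0.05 (red higher, blue lower); the values run from -0.40 to 0.57 against WT H1.4, where 24 points are filled, and 15 are filled against GFP.

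The promoters of the members with the largest changes called in both comparisons are shown for reference, the first pair higher and the second pair lower in H1.4 CFT. Each is the 250 bases before the annotated start from RefSeq's promoter sequences on GRCr8, a later build than the count files use. Of the 63 members, 48 had an entry, and Prdm8 and Setd7 did not. Capitals mark matches to GGGCGG on either strand, the GC box that Sp-family factors are known to bind.
Prdm15, chr11:50691590-50691839, minus strand: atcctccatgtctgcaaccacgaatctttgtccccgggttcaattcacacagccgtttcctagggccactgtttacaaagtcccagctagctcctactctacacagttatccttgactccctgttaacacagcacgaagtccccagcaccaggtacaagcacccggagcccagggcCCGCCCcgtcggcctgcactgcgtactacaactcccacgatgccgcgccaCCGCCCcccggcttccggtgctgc
Dot1l, chr7:9607096-9607345, minus strand: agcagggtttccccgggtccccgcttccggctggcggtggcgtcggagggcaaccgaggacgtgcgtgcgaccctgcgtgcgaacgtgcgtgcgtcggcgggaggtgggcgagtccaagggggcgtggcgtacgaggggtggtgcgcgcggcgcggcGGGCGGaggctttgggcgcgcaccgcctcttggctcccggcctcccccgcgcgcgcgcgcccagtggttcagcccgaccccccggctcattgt
Kdm2b, chr12:39235228-39235477, plus strand: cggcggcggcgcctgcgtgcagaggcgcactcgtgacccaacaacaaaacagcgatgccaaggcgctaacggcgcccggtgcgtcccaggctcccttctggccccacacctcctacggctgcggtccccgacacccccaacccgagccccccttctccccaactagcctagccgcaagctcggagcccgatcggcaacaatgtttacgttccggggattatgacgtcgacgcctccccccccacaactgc
Setd1b, chr12:39081872-39082121, minus strand: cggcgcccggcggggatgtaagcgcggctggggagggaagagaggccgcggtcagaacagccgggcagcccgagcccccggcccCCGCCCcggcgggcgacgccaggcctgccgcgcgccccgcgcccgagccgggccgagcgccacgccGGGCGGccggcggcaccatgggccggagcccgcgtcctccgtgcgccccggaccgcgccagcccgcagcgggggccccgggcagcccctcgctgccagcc

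These windows hold 15 (Prdm15), 40 (Dot1l), 26 (Kdm2b) and 42 (Setd1b) CpG dinucleotides, beside a median of 5 over 33360 windows of all genes and of 17.5 over the members' windows. GGGCGG was found 2 times in Prdm15, 1 time in Dot1l and 2 times in Setd1b, and not in Kdm2b, and 30.5% of all windows hold it. Neither CCAAT (in 34.03% of all windows, either strand) nor TATAAA (in 12.9%) was found in any of these windows. Genes that rose and genes that fell thus both have CpG-rich windows here, and a match of letters is a description only.

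Among the PRDM family, zinc-finger proteins with a SET-like domain, 3 of 8 tested members rose against WT and 0 fell, and 2 rose against GFP. Counts by class, here and below, stand beside shares of all genes of 16.7% higher and 19.2% lower against WT. Against GFP these shares are 13.3% and 16.2%. Prdm15, a chromatin-associated transcription factor, stood at 47.7, 47.5, 53.0 and 50.8 CPM in CFT 1 to 4, at 35.7, 34.3, 34.4 and 29.98 in WT 1 to 4 and between 32.3 and 35.5 in GFP 2 to 4. All 4 CFT libraries lay above all others, while WT and GFP overlapped. Its log2 fold change was 0.57 against WT (SE 0.064, adjusted p = 1.98e-06) and 0.55 against GFP (SE 0.071, adjusted p = 1.22e-05).

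Prdm8, a repressor that acts in neuronal development and axon growth, had 138, 145, 144 and 134 CPM in CFT 1 to 4, 102, 106, 103 and 99.6 CPM in WT 1 to 4 and 104, 99.9 and 102 CPM in GFP 2 to 4. Here too CFT did not overlap the other groups, which overlapped each other. The rise was 1.37-fold against either group (log2 fold change 0.45, SE 0.041, adjusted p = 2.39e-07 against WT; 0.46, SE 0.045, adjusted p = 7.75e-07 against GFP), and 0.45 was also the log2 fold change among libraries 1 and 2 and among libraries 3 and 4 taken alone.

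Prdm16, known from neural stem cells and brown fat, was 1.33-fold higher in CFT (45.4 ± 3.96 CPM, SD, n = 4) than in WT (34.3 ± 1.54 CPM, n = 4), with a log2 fold change of 0.41 (SE 0.067, adjusted p = 0.000113). GFP lay between them at 40.4 ± 2.38 CPM (n = 3). Against GFP Prdm16 did not pass (log2 fold change 0.16, adjusted p = 0.0955), but it did with the replicate number as a block (0.20, adjusted p = 0.025) and without CFT 1 (0.22, adjusted p = 0.018). It did not pass there with the number pair (1 and 2, or 3 and 4) as a factor. Its log2 fold change against GFP was 0.006 among libraries 1 and 2 and 0.28 among libraries 3 and 4. The other tested PRDM genes did not pass in any comparison. Prdm10, at an adjusted p of 0.0554 against GFP, passed with a filter of at least 5 CPM in 3 samples and without CFT 3. It also passed there with the number pair, 1 and 2 or 3 and 4, as a factor, but not with the replicate block (adjusted p = 0.0978). Prdm11 passed against WT without CFT 2 and with only libraries 3 and 4. Prdm1, Prdm6, Prdm12 and Prdm13 had 11 to 16 reads each over all 11 libraries and Prdm14 had 0, which allows up to 0.0165 CPM (3 counts of all reads in genes, counting error only).

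Dot1l, the only known H3K79 methyltransferase, had the largest rise against GFP, 1.504-fold. It stood at 116, 108, 133 and 130 CPM in CFT 1 to 4, at 87.4, 83.8, 83.5 and 86.9 in WT 1 to 4 and at 79.7, 79.8 and 82.8 in GFP 2 to 4. CFT 3 and CFT 4 were above CFT 1 and CFT 2, and all 4 were above the other groups. The log2 fold change was 0.51 against WT (SE 0.055, adjusted p = 1.30e-06) and 0.59 against GFP (SE 0.061, adjusted p = 1.19e-06). Among libraries 1 and 2 alone it was 0.38 against WT, and among libraries 3 and 4 alone it was 0.62. The gene that its span overlaps is Plekhj1.

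Of the other writers of H3K36 and H4K20 methylation, 1 rose and 1 fell against WT. Kmt5b, which adds di- and trimethylation to H4K20, was higher in CFT at 107, 103, 115 and 114 CPM than in WT, at 94.4, 95.5, 99.3 and 95.8 CPM, and in GFP, at 98.2, 88.7 and 94.1 CPM, with no overlap. Its log2 fold changes were 0.19 against WT (SE 0.047, adjusted p = 0.0032) and 0.23 against GFP (SE 0.051, adjusted p = 0.00202). Kmt5a, the H4K20 monomethyltransferase, also lay above all other libraries in CFT but did not pass (adjusted p = 0.0608 against WT). Kmt5a did pass against WT with the filter of at least 5 CPM in 3 samples and with the number pair as a factor. With the replicate block it did not (adjusted p = 0.0703). Nsd2, an enzyme of H3K36 dimethylation, fell 1.13-fold against WT, from 302, 295, 300 and 303 CPM in WT 1 to 4 to 267, 273, 260 and 265 CPM in CFT 1 to 4 (log2 fold change -0.17, SE 0.040, adjusted p = 0.00247). Against GFP its log2 fold change was -0.11 (adjusted p = 0.0695), although the CFT and GFP libraries did not overlap. That adjusted p was 0.028 with the number pair as a factor and 0.0769 with the replicate block. Nsd1, which makes the same mark, did not pass (280 ± 4.24 CPM in WT, 273 ± 17.2 in CFT and 274 ± 10.2 in GFP), nor did Setd2, which trimethylates H3K36 (120 ± 6.52, 124 ± 5.41 and 118 ± 9.14 CPM). Nsd3, Kmt5c and Setmar did not pass in any comparison.

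The H3K9 methyltransferases showed 3 rises and 0 falls among 6 tested members against WT, and 2 rises against GFP. Ehmt2 and Ehmt1 (G9a and GLP) form the dimer that makes H3K9 dimethylation in euchromatin. Ehmt2 stood at 185, 189, 207 and 194 CPM in CFT 1 to 4, at 166, 145, 176 and 171 in WT 1 to 4 and at 142, 141 and 153 in GFP 2 to 4. Every CFT library was above every other, and WT and GFP overlapped. The log2 fold change was 0.24 against WT (SE 0.054, adjusted p = 0.00197) and 0.42 against GFP (SE 0.059, adjusted p = 3.59e-05). Between WT and GFP it was 0.18 (SE 0.059, adjusted p = 0.189).

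Ehmt1 had 143, 147, 148 and 144 CPM in CFT 1 to 4, 130, 130, 132 and 128 in WT 1 to 4 and 120, 120 and 123 in GFP 2 to 4. The 3 groups did not overlap, with CFT highest and GFP lowest. Its log2 fold change was 0.17 against WT (SE 0.037, adjusted p = 0.0019), 0.27 against GFP (SE 0.041, adjusted p = 7.87e-05) and 0.10 for WT against GFP (SE 0.041, adjusted p = 0.331). The rises of both dimer genes against WT and GFP were called under every setting but the fold threshold of 0.25 on the log2 scale, where only Ehmt2 against GFP was (adjusted p = 0.0192).

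Suv39h1l1, listed by RefSeq as a synonym of Suv39h1, an X-linked gene for an enzyme of H3K9 trimethylation, rose 1.30-fold against WT (29.2 ± 0.573 CPM in CFT, 22.4 ± 0.579 in WT, log2 fold change 0.38, SE 0.069, adjusted p = 0.000243). GFP 2 to 4 stood between at 23.5, 28.7 and 25.8 CPM and overlapped CFT, and the difference from GFP did not pass (log2 fold change 0.17, adjusted p = 0.0946). It passed without GFP 3 (0.24, adjusted p = 0.0364) and with the number pair, 1 and 2 or 3 and 4, as a factor (0.18, adjusted p = 0.0479). It did not pass with the replicate block (0.17, adjusted p = 0.0898). The entry Suv39h1 itself had 7 reads in all, so how the counting split these names is uncertain. Setdb1, an H3K9 methyltransferase gene whose protein is recruited by Trim28, had 96.6 ± 5.22 CPM in CFT, 90.5 ± 3.25 in WT and 88.3 ± 2.19 in GFP and did not pass (adjusted p = 0.121 against WT and 0.062 against GFP). Without CFT 2 these became 0.0355 and 0.0181. Against GFP the adjusted p was 0.0404 with the number pair as a factor and 0.0824 with the replicate block. Setdb2 and Suv39h2 did not pass in either comparison.

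Among the demethylases of H3K9 and H3K36, 4 of 9 tested members fell against WT and 1 rose, and 1 fell against GFP. Kdm2b, an H3K36 demethylase that also brings a Polycomb complex to CpG islands, stood at 119, 110, 107 and 104 CPM in CFT 1 to 4, at 130, 133, 133 and 136 in WT 1 to 4 and at 132, 128 and 127 in GFP 2 to 4. All CFT libraries were below all others. The fall was 1.21-fold against WT (log2 fold change -0.27, SE 0.045, adjusted p = 0.000103), and that against GFP was 1.17-fold (-0.23, SE 0.049, adjusted p = 0.00143).

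Kdm4b, which removes H3K9 trimethylation, showed a difference that varied with the replicate number. WT 1 to 4 had 172, 183, 186 and 193 CPM, CFT 1 to 4 had 162, 165, 136 and 132 CPM and GFP 2 to 4 had 171, 159 and 139 CPM. CFT lay below WT, with CFT 3 and 4 far below CFT 1 and 2, and GFP overlapped CFT. The log2 fold change against WT was -0.30 (SE 0.081, adjusted p = 0.0122), made up of -0.11 among libraries 1 and 2 and -0.50 among libraries 3 and 4. Against GFP it was -0.07 (adjusted p = 0.595).

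Kdm7a, a demethylase of H3K9 and H3K27, fell 1.27-fold against WT (20.6 ± 0.501 CPM in CFT, 26.1 ± 2.92 in WT, log2 fold change -0.35, SE 0.10, adjusted p = 0.0126), but the adjusted p was 0.0537 without WT 1. Against GFP (23.4 ± 4.59 CPM) Kdm7a did not pass (adjusted p = 0.268), but it did without GFP 4 (0.0212) and with only libraries 1 and 2 (0.0316). Kdm8, a JmjC protein first described as an H3K36 demethylase, was the member of this class that rose, from 12.5 ± 0.974 to 15.6 ± 1.46 CPM (log2 fold change 0.32, SE 0.097, adjusted p = 0.0138, 0.0602 without CFT 4). GFP had 14.8 ± 1.49 CPM of Kdm8, close to CFT. Kdm3b fell by 0.10 on the log2 scale against WT with an adjusted p of 0.0424. That call was lost with the replicate block (0.0592) and without any single one of WT 1 to 4, CFT 1, CFT 3 or CFT 4 (0.0576 to 0.0954), and also with no low-count filter (0.103), with a filter of at least 5 CPM in 3 samples (0.0749) and with only the groups compared (0.0567). Kdm2a, Kdm4a, Kdm4c and Kdm4d did not pass, and Kdm4dl2, with 50 reads in all, was not tested.

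The H3K4 methyltransferases moved both ways, with 1 of 10 tested members higher and 4 lower against WT. Kmt2b, an MLL-family enzyme, had 82.6, 83.2, 85.6 and 82.4 CPM in CFT 1 to 4, 74.3, 68.7, 73.1 and 68.8 in WT 1 to 4 and 77.5, 65.9 and 70.8 in GFP 2 to 4. The CFT libraries lay close together above all others. The rise was 1.17-fold against either group (log2 fold change 0.23, SE 0.051, adjusted p = 0.00161 against WT; 0.22, SE 0.055, adjusted p = 0.00456 against GFP).

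Setd1b, a catalytic subunit of the COMPASS complex, went down. It had 54.3, 55.3, 53.0 and 46.2 CPM in CFT 1 to 4, 60.3, 59.5, 67.2 and 56.7 in WT 1 to 4 and 67.5, 60.1 and 65.9 in GFP 2 to 4. The CFT range ended just below the lowest WT library. The log2 fold change was -0.22 against WT (SE 0.064, adjusted p = 0.00986, 0.0509 without WT 3) and -0.31 against GFP (SE 0.070, adjusted p = 0.00234). Its close relative Setd1a did not pass (log2 fold change 0.10, adjusted p = 0.132 against WT).

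Setd7, an H3K4 monomethyltransferase that also modifies other proteins, had 16.1, 18.1, 16.4 and 16.6 CPM in CFT 1 to 4, 21.5, 21.8, 22.2 and 19.1 in WT 1 to 4 and 21.6, 22.0 and 18.2 in GFP 2 to 4. The highest CFT library, CFT 2, was just below GFP 4. The fall was 1.26-fold against WT (log2 fold change -0.33, SE 0.083, adjusted p = 0.00414), and that against GFP was 1.22-fold (-0.29, SE 0.091, adjusted p = 0.0218). The call against GFP was lost without GFP 2 (0.0871) or GFP 3 (0.10).

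Kmt2e, an MLL-family member with little enzyme activity of its own, fell 1.10-fold against WT (178 ± 4.01 against 196 ± 5.72 CPM, adjusted p = 0.00886), and Kmt2c, which acts at enhancers, fell 1.09-fold with an adjusted p of 0.048. The call for Kmt2c was lost without any single one of WT 1 to 4, CFT 1, CFT 3, CFT 4 or GFP 4 (0.0535 to 0.118), with DESeq2 (0.0515) and with the filter of at least 5 CPM in 3 samples (0.0876). In GFP Kmt2e had 183 ± 7.17 CPM and Kmt2c 173 ± 13.0 CPM, and neither passed against GFP. Kmt2d, the partner enzyme of Kmt2c at enhancers, had a log2 fold change of -0.11 against WT that did not pass (adjusted p = 0.0607) but did with the replicate block (0.036). Kmt2a (177 ± 2.92 CPM in CFT, 174 ± 6.66 in WT, 167 ± 9.59 in GFP) and Ash1l, here listed with these enzymes although it is known mainly for H3K36 (154 ± 3.49, 153 ± 4.74 and 160 ± 7.34 CPM), did not pass, nor did the meiotic gene Prdm9.

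Of the 6 tested H3K4 demethylases, 2 rose against WT and 4 rose against GFP, and 0 fell. Kdm5a had 77.0, 75.5, 83.0 and 82.0 CPM in CFT 1 to 4, 68.6, 71.7, 71.6 and 72.0 in WT 1 to 4 and 73.2, 70.3 and 69.7 in GFP 2 to 4, with no overlap between CFT and the rest. Its log2 fold change was 0.16 against WT (SE 0.046, adjusted p = 0.00982) and 0.16 against GFP (SE 0.051, adjusted p = 0.0213). The call against GFP was lost without GFP 3 (0.0717), GFP 4 (0.0828), CFT 3 (0.0697) or CFT 4 (0.0596).

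Kdm5c, an X-linked relative linked to intellectual disability, had 161, 165, 171 and 173 CPM in CFT 1 to 4, 138, 142, 150 and 165 in WT 1 to 4 and 146, 154 and 154 in GFP 2 to 4. WT 4 reached into the CFT range. The log2 fold change was 0.17 against WT (SE 0.050, adjusted p = 0.0113, 0.052 without WT 1) and 0.15 against GFP (SE 0.054, adjusted p = 0.0484). The call against GFP was lost without any single one of WT 2, WT 3, CFT 2 to 4 or GFP 2 to 4 (0.053 to 0.156), and also with DESeq2 (0.0639) and RLE scaling (0.0515).

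Kdm1a (LSD1), the flavin-dependent eraser of the CoREST repressor complex, rose 1.15-fold against GFP (147 ± 6.26 CPM in CFT, 127 ± 5.15 in GFP, log2 fold change 0.21, SE 0.049, adjusted p = 0.00342). WT, at 141 ± 5.65 CPM, overlapped CFT, and Kdm1a did not pass against WT (0.06, adjusted p = 0.322). Kdm1b was 1.15-fold higher than in GFP (adjusted p = 0.0315), a call lost without CFT 1, CFT 4, GFP 2 or GFP 4 (0.0775 to 0.118) and with only the groups compared (0.0514). Kdm5b, at a log2 fold change of -0.14 against WT, did not pass (adjusted p = 0.0966), but did with the replicate block (0.0138).

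Kdm5d, the Y-linked member of this class, was singled out after its values were seen. It followed the replicate number more than the group. It had 38.1 and 30.2 CPM in CFT 1 and 2 against 20.8 and 21.9 in CFT 3 and 4, 31.1 and 30.02 in WT 1 and 2 against 17.4 and 18.9 in WT 3 and 4, and 35.0 in GFP 2 against 19.1 and 21.3 in GFP 3 and 4. Libraries numbered 1 and 2 were above those numbered 3 and 4 in each group. Its log2 fold change against WT was 0.19 with an SE of 0.30 (adjusted p = 0.663), and with the replicate block it was also 0.19 but passed (adjusted p = 0.0355).

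**Figure D2:**
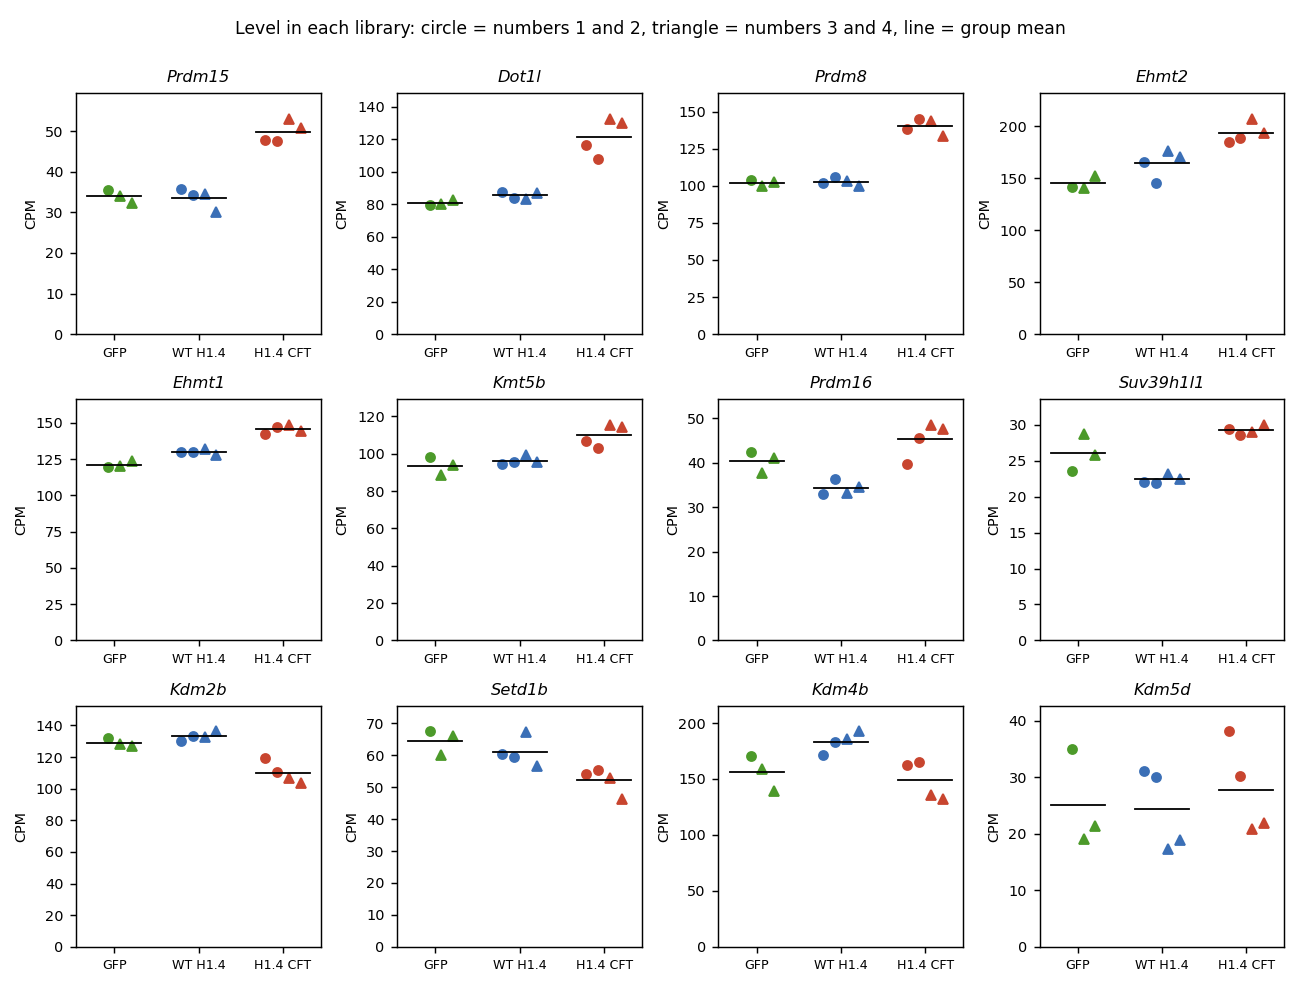
Level in CPM (TMM-scaled) of 12 members in each library, by group, each panel with its own axis from 0; circles are replicate numbers 1 and 2, triangles are numbers 3 and 4, and lines are group means. The H1.4 CFT libraries stand above all others for Prdm15, Dot1l, Prdm8, Ehmt2, Ehmt1 and Kmt5b and below them for Kdm2b and Setd1b, while Kdm5d splits by number in every group.

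None of the 4 genes counted here as H3K27 enzymes passed against WT or GFP in edgeR, beside the 35.9% and 29.5% of all genes called. At an unadjusted p under 0.05 there were 2 against WT and 0 against GFP, and DESeq2 called 0 in each. Kdm7a, which acts on H3K27 as well as H3K9, was counted with the H3K9 and H3K36 demethylases and fell against WT (adjusted p = 0.0126 in edgeR). Ezh2, the catalytic subunit of Polycomb repressive complex 2 in dividing cells, had 44.6, 42.6, 52.9 and 54.4 CPM in CFT 1 to 4, 43.2, 48.9, 44.1 and 41.5 in WT 1 to 4 and 45.6, 39.2 and 44.1 in GFP 2 to 4. CFT 3 and CFT 4 were above all other libraries, and CFT 1 and CFT 2 lay within the WT range. The log2 fold change against WT was -0.07 among libraries 1 and 2 (adjusted p = 0.497) and 0.33 among libraries 3 and 4 (adjusted p = 5.69e-05), and 0.13 over all (adjusted p = 0.203). Against GFP it was 0.18 (adjusted p = 0.135), and 0.23 without CFT 2 (adjusted p = 0.0361).

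Ezh1, its counterpart in postmitotic cells, had 25.7 ± 3.18 CPM in CFT, 29.7 ± 1.81 in WT and 27.4 ± 2.42 in GFP. Its log2 fold change against WT was -0.21 (adjusted p = 0.0617), which passed with the replicate block (0.0187) and without CFT 1 (0.0439), CFT 2 (0.022) or WT 3 (0.0464). Kdm6b, a demethylase of H3K27, had 107 ± 7.13 CPM in CFT, 121 ± 1.021 in WT and 101 ± 16.4 in GFP, where GFP 2 (119), GFP 3 (99.6) and GFP 4 (85.8) lay far apart. Against WT its log2 fold change was -0.18 (adjusted p = 0.0752), and it passed with the replicate block (0.0103) and without CFT 2 (0.041), GFP 2 (0.00948) or GFP 4 (0.0144). For WT against GFP it was 0.26 (adjusted p = 0.202), and it passed with the block (0.0329) and without GFP 2 (0.00457), as did CFT against GFP without GFP 2 (0.0253). Kdm6a, the X-linked H3K27 demethylase, had 27.4, 26.7, 33.2 and 33.5 CPM in CFT 1 to 4 and 32.4, 30.8, 35.7 and 36.1 in WT 1 to 4, with a log2 fold change of -0.16 (adjusted p = 0.128, 0.042 with the block).

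The remaining SET-domain genes act mostly on other proteins. Setd4 rose 1.19-fold against WT and 1.22-fold against GFP, with 48.5 ± 2.52 CPM in CFT, 40.6 ± 2.34 in WT and 39.6 ± 1.19 in GFP (adjusted p = 0.00207 and 0.00202). Against WT its log2 fold change was 0.12 among libraries 1 and 2 and 0.39 among libraries 3 and 4. Setd5, a chromatin regulator mutated in intellectual disability, fell 1.10-fold against WT (177 ± 7.55 against 196 ± 4.96 CPM, adjusted p = 0.0111). Setd5 did not pass against GFP (189 ± 6.15 CPM, adjusted p = 0.113). There its adjusted p was 0.0316 with the number pair as a factor and 0.0596 with the replicate block. Setd3, the actin histidine methyltransferase, fell 1.09-fold against WT (104 ± 0.955 against 114 ± 3.45 CPM, adjusted p = 0.0159, 0.0537 without WT 3). Setd6 did not pass.

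Set out by class against WT, the 6 H3K9 writers gave 3 rises and 0 falls and the 9 H3K9 and H3K36 erasers 1 rise and 4 falls, while the 10 H3K4 writers gave 1 rise and 4 falls and the 6 H3K4 erasers 2 rises and 0 falls. Against GFP these counts were 2 and 0, 0 and 1, 1 and 2, and 4 and 0. The other classes against WT gave 3 rises and 0 falls for 8 PRDM genes and 2 and 1 for 9 writers of H3K36, H3K79 and H4K20. The 4 other SET-domain genes gave 1 and 2, and the 4 H3K27 enzymes 0 and 0. Against GFP these were 2 and 0, 2 and 0, 1 and 0, and 0 and 0. Beside these stand the shares of all genes tested, 16.7% higher and 19.2% lower against WT and 13.3% and 16.2% against GFP. Some of these calls did not hold under several alternatives, as given beside their values. Among them are Kdm3b and Kmt2c against WT, and Kdm1b, Kdm5a and Kdm5c against GFP. Classes hold 4 to 10 tested genes, and the differences between the classes were not tested.

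**Figure D3:**
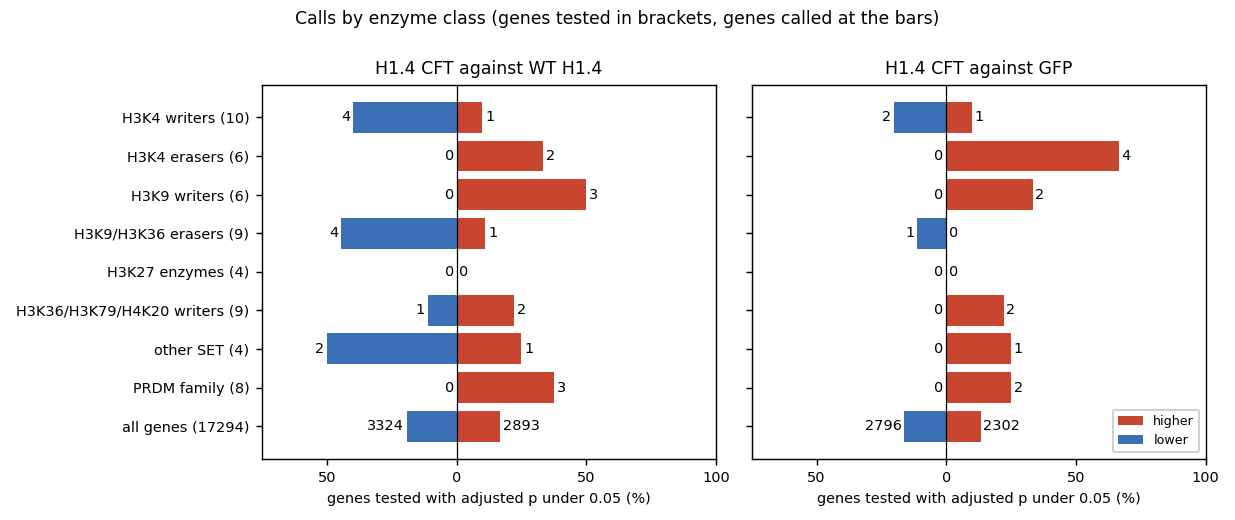
Share of the tested genes of each enzyme class that were higher (right, red) or lower (left, blue) in H1.4 CFT at an adjusted p of 0.05, with the number of genes at each bar, against WT H1.4 (left panel) and GFP (right panel). The lowest bar gives all 17294 genes; in both panels the H3K9 writers, H3K4 erasers and PRDM family have calls on the higher side only.

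Partner genes of these enzymes that the symbol rule does not match were counted by list, to be read beside the 35.9% of all genes called against WT and the 29.5% called against GFP. Of 13 subunits and partners of the COMPASS and MLL complexes, 4 rose and 2 fell against WT, and 3 rose and 1 fell against GFP. The core subunit gene Ash2l was 1.197-fold higher than in WT (adjusted p = 0.00108), and Psip1, which tethers MLL complexes to chromatin, had a log2 fold change of -0.16 (adjusted p = 0.00416). Of 25 tested Polycomb partners, 6 rose and 2 fell against WT and 3 rose against GFP. Cbx6, a chromodomain subunit of Polycomb repressive complex 1, rose from 217 ± 2.27 CPM in WT and 220 ± 1.91 in GFP to 290 ± 7.204 in CFT (log2 fold change 0.42 against WT, adjusted p = 1.31e-07, and 0.40 against GFP, adjusted p = 7.84e-07). Cbx2 rose 1.38-fold and Pcgf6 fell 1.27-fold against WT (adjusted p = 0.000617 and 0.000369).

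Of 9 partners of Kdm1a in the CoREST complex, 2 rose and 1 fell against WT. Phf21a, which reads unmodified H3K4, rose 1.27-fold (adjusted p = 0.000208) and Gse1 1.18-fold (adjusted p = 0.000215), while the scaffold gene Rcor3 fell 1.201-fold (adjusted p = 0.00126). Of 9 readers and partners of H3K9 methylation, 0 passed in edgeR or DESeq2 in either comparison, with 1 at an unadjusted p under 0.05 in each. Of 22 tested methyltransferases and JmjC proteins with other names, 3 rose and 4 fell against WT. They include Smyd2 (1.198-fold higher, adjusted p = 0.000204), Smyd5 (1.24-fold lower, adjusted p = 0.0016) and the arginine methyltransferase gene Prmt2 (1.13-fold lower, adjusted p = 0.0071).

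The libraries numbered 1 and 2 and those numbered 3 and 4 share a level of many members within a group, although no label says what the numbers stand for. With only libraries 3 and 4, 32 members passed against WT, 23 of them from the 24 called over all libraries. With only libraries 1 and 2, 18 passed, 16 of them from the 24. Over all genes too, more passed against WT with only libraries 3 and 4 (7488) and fewer with only libraries 1 and 2 than over all libraries (6217). The 16 members called in all 3 fits were Dot1l, Prdm15, Prdm8, Prdm16, Suv39h1l1, Ehmt1, Ehmt2, Kmt2b, Kmt5b, Kdm5c, Kdm2b, Kdm4b, Kdm7a, Nsd2, Setd5 and Setd7. Of the called members, those with the widest gap between the 2 sets in log2 fold change were Kdm4b (-0.11 and -0.50), Kdm8 (0.16 and 0.48), Setd4 (0.12 and 0.39), Prdm15 (0.44 and 0.69) and Dot1l (0.38 and 0.62), each larger in size in libraries 3 and 4. The difference between the 2 sets was not tested gene by gene. In a fit of 1 set the spread comes from within that set, where libraries of a group differed less than across sets. The p-values of such fits leave out the spread between the sets. Against GFP, where libraries 1 and 2 include a single GFP library, 10 of the 15 called members passed with only libraries 1 and 2 and 13 with only libraries 3 and 4. With only libraries 1 and 2 the calls for Kmt2b (log2 fold change 0.09, adjusted p = 0.395), Kmt5b (0.09, adjusted p = 0.322), Kdm5a (0.06, adjusted p = 0.648), Setd4 (0.21, adjusted p = 0.0932) and Setd7 (-0.34, adjusted p = 0.0606) were lost. With only libraries 3 and 4 those for Setd7 (-0.27, adjusted p = 0.0521) and Kdm1b (0.16, adjusted p = 0.0826) were lost. With the number pair as a factor and all libraries kept, 31 members passed against WT and 21 against GFP, including all 24 and all 15 of those called without it. Over all genes 7323 passed against WT and 6280 against GFP in that fit, beside 6217 and 5098 without the factor.

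**Figure D4:**
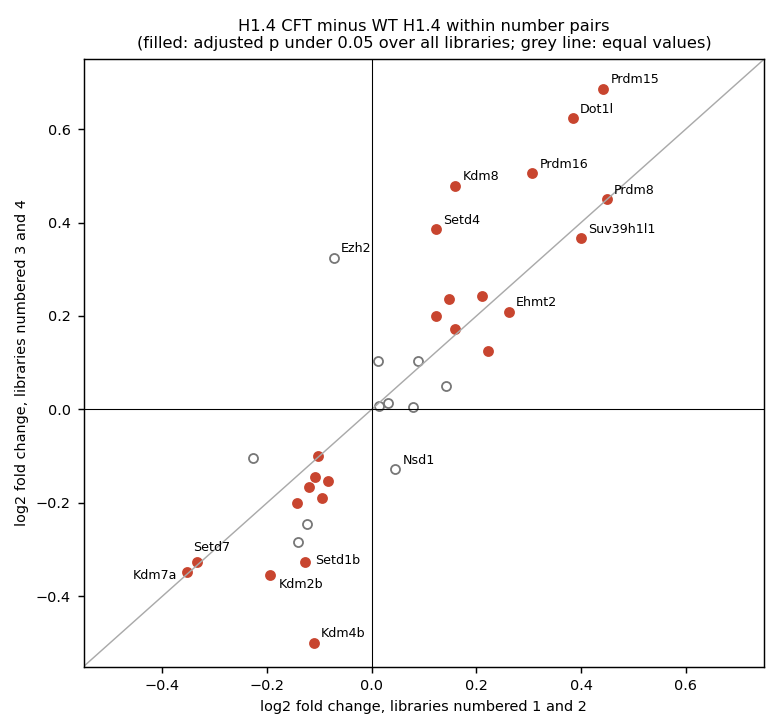
Log2 fold change of 35 tested members named by the rule for H1.4 CFT minus WT H1.4 in libraries numbered 1 and 2 (horizontal) and 3 and 4 (vertical); filled points passed an adjusted p of 0.05 over all libraries, and the grey line marks equal values. Prdm8 lies on the line at 0.45, Kdm4b lies far below it and Ezh2 changes side of 0.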

How the data were processed

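The values are read counts per gene, deposited by the authors as 1 file per library, raw and not normalized. Per the submitters' processing notes, STAR 2.7.2b and HTSeq 0.10.0 were used with the mRatBN7.2 build; the annotation release and the strand setting are not given in the sources used here. The 5 summary rows without a gene, 53.13% to 54.09% of a library's counts, were left out. The design text calls the samples of a group biological replicates. No 2 libraries of a group agreed within counting noise. Their variance was 1.79 to 2.25 times that of counting within numbers 1 and 2 or within numbers 3 and 4. Across these sets it was 3.68 to 9.94 times that of counting.

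All 11 libraries were fitted together in R 4.3.3 with edgeR 4.0.16 (quasi-likelihood, robust, TMM scaling, filterByExpr with a minimum count of 10 and a minimum total of 15), and Benjamini-Hochberg adjustment ran over the p-values of 17294 genes. The biological coefficient of variation was 7.02% with 8 residual degrees of freedom. DESeq2 1.42.0, other scalings and filters, the replicate block, the number pair (1 and 2, or 3 and 4) as a factor, subsets by replicate number, a test against a log2 change of 0.25 and each library left out in turn were alternatives. The scripts were tested on simulated counts.

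Libraries of equal replicate number deviated together (correlation of residuals 0.126 to 0.219 between CFT and WT over 4 pairs, 0.143 to 0.294 between CFT and GFP and 0.107 to 0.234 between WT and GFP over 3 pairs each), which met the rule set for taking the numbers as pairs, from the data and not from a label. Unequal numbers within 1 and 2 or within 3 and 4 correlated as strongly (CFT 1 with WT 2 0.193, CFT 1 with GFP 2 0.304). A CFT library correlated best with the WT library of its own number in 2 of 4 cases. There is no GFP 1, so 3 cases remain in each comparison with GFP. The best match had the same number in 2 of 3 for CFT and in 1 of 3 for WT. The number pair as a factor was therefore also fitted, as listed among the alternatives.

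Members called in any comparison, at most 30 each, and 18 of the best known ones were named. Kdm5d, Kmt5a, Kmt2d, Kdm5b, Setd1a and the members listed as not passing were named after their values were seen. Members and lists were chosen with earlier results of these data known. In addition, 1 tested member is neither named nor plotted here. Promoter sequences and gene overlaps come from RefSeq tables of GRCr8.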

Additional observations from a re-analysis of the deposited data

Results flagged for a closer look

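In 2 of 70 groups of 4 libraries tested among the named members, 1 library stood apart from the others by a gap past Dixon's critical value for the group's range, where chance gives about 1 in 20. Kdm1a in CFT 3 was at 156.3 CPM, with the other CFT libraries at 143.4 to 144.1 CPM (gap 0.94 of the range). Kdm5a in WT 1 was at 68.63 CPM, with the other WT libraries at 71.57 to 71.97 CPM (gap 0.879 of the range).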

How the results depend on the processing

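Of the members called, 14 of 24 against WT H1.4 and 8 of 15 against GFP were called under every alternative other than the fold threshold, 17 and 11 under every library left out, and 0 changed direction while called. Leaving out 1 library gave 5053 to 6431 genes and 20 to 30 members against WT, 3965 to 5142 genes and 12 to 16 members against GFP, and 44 to 304 genes and 0 to 1 member for WT against GFP. In that last comparison the count of 163 genes fell to 44 without GFP 3 or GFP 4 and to 82 to 108 without any 1 of WT 1 to 4, and it was 304 without GFP 2. The fold threshold left 1835 genes and 4 members against WT, 1502 genes and 4 members against GFP and 5 genes for WT against GFP. With only libraries 1 and 2, 3323 genes passed between CFT and GFP, where the lone GFP library is assumed to vary like the others, and 1 member (Kdm1a) for WT against GFP. WT against GFP moved most, from 163 genes to 248 with DESeq2, 462 without the filter, 404 with the number pair as a factor, 1595 with only libraries 3 and 4 and 357 with only the groups compared. Members called there were 3 without the filter (Ehmt2, Kdm4b and Kdm6b), 1 with the number pair as a factor (Ehmt2), 9 with only libraries 3 and 4, and 1 without GFP 2 (Kdm6b). The cause was not tested.

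With the replicate block, 6809 genes and 29 members passed against WT, 5597 genes and 16 members against GFP, and 248 genes and 1 member (Kdm6b) for WT against GFP. The block changed no call of a member other than those given beside its values. Depth limits the 7 members that did not pass the filter, which had 0 to 50 reads each over all libraries. Of these, Prdm6, with 0 reads in WT and 9 in CFT, was called against WT when no filter was used.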

Other observations

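Kdm5d was not the only Y-linked gene whose level went with the replicate number. Uty, the Y-linked relative of Kdm6a, had 15.6 and 11.7 CPM in CFT 1 and 2 against 8.40 and 9.49 CPM in CFT 3 and 4, 13.5 and 10.7 in WT 1 and 2 against 7.83 and 8.19 in WT 3 and 4, and 15.6 in GFP 2 against 8.56 and 10.8 in GFP 3 and 4. Eif2s3y, a Y-linked translation factor gene, had 52.8 and 51.3 CPM in CFT 1 and 2 against 34.2 and 37.5 in CFT 3 and 4, 55.2 and 56.0 in WT 1 and 2 against 33.0 and 34.5 in WT 3 and 4, and 56.5 in GFP 2 against 40.3 and 40.8 in GFP 3 and 4. In each group the libraries numbered 1 or 2 stood above those numbered 3 or 4 for all 3 genes, which were chosen after their values were seen. The Y-linked genes Ddx3y and Usp9y, with 0 to 11 reads in any library, did not follow this in CFT: Ddx3y had 3, 2, 9 and 11 reads in CFT 1 to 4, and Usp9y had 3, 2, 4 and 4. The X-linked members Kdm6a and Kdm5c were both higher in libraries 3 and 4 than in libraries 1 and 2 among WT and among CFT. Suv39h1l1, listed as a synonym of the X-linked Suv39h1, did so in WT, at 22.05 and 21.85 against 23.16 and 22.45 CPM. It did not in CFT, at 29.34 and 28.59 CPM in CFT 1 and 2 against 28.9 and 29.92 in CFT 3 and 4.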
